A study of Homo sapiens with 16 samples.

Results

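VAMP8 is a vesicle membrane protein of the SNARE family, and its transcript was followed here together with those of its closest vesicle relatives (VAMP1, VAMP2, VAMP3, VAMP4 and VAMP5) and of SNARE partners on target membranes (SNAP23, SNAP29, STX3 and STX4). These 10 genes were taken by symbol from a table of 18190 gene symbols, with the brightest detected probe standing for each gene. The table lists 8 of them under their present symbol and STX3 under its older symbol STX3A. STX4 matched no symbol and was not analysed here, so 9 genes were tested.

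The cells were MCF10HER2, which derive from MCF10A, a nontransformed line of breast epithelium, and stably over express the receptor tyrosine kinase HER2. Parallel cultures in serum-free, insulin-free medium with EGF and hydrocortisone received 1 µM the HER2 kinase inhibitor CP724,714, and the medium was renewed at the same moment. RNA was taken every 3 h up to 45 h on 16 arrays, 1 per time point, and only the culture of 0 h was untreated. The effects of the inhibitor, the fresh medium and time in culture cannot be told apart, because no untreated culture later than 0 h was analysed here. MCF10HER2 is 1 engineered line, and a change in the RNA of every cell cannot be told apart from a change in the mix of cells.

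SNARE proteins drive the fusion of membranes inside cells. A SNARE on the vesicle, usually a VAMP, zips into a tight helical bundle with partner SNAREs on the target membrane, usually a syntaxin together with a SNAP protein, and the bundle pulls the membranes together. VAMP8, also called endobrevin, works at endosomes and lysosomes and in regulated secretion from gland cells, and in fat and muscle cells the insulin-responsive glucose transporter GLUT4 travels in vesicles that use the same machinery. The study singled out VAMP8 on these arrays together with a series of MCF10A cells, so its rise is a description here. It is also the starting point of the comparison, which asks whether other SNAREs followed the same course. The study also measured VAMP8 by RT-PCR and immunoblot and in a treated HER2-amplified breast cancer line, none of which was analysed here.

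Each array detected 10363 to 11436 of its 20589 probes, at a detection p under 0.05. All 10 markers of breast epithelium looked for were detected at least once, 7 of them on every array, although the basal keratin KRT14 was detected on 1 array. COL1A1, VWF, CDH5, ADIPOQ and the neuronal SNARE gene SNAP25 were detected on no array, whereas DCN, CD14, CD68 and PECAM1, markers of other cell types, were detected on all 16. Other such markers lay between: the neuronal ENO2 was detected on 15 arrays, PTPRC on 7, FABP4 on 4, COL3A1 on 2 and CD3E on 1. The 2 probes of ERBB2, the gene of HER2, were detected on 1 and 7 arrays. Their normalized log2 signals lay between 5.62 and 6.42, near the median of 5.48 of probes detected on no array. Why they were so low in a line that over expresses HER2 was not tested. The arrays differed in background: the median signal of absent probes was 135.9 to 148.9 in the 8 arrays up to 21 h, and it was 164.5 to 173.9 in the 8 later arrays. The 9 h and 18 h arrays were dim, with an upper quartile intensity of 397 and 418 against 553 to 804 on the others.

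VAMP8 and VAMP5 lie next to each other, in the same orientation, on chromosome 2, and VAMP5 is the first protein-coding gene after VAMP8. Since both rose, the 250 bases before each start are shown, from RefSeq promoters of the GRCh38.p14 build. The VAMP8 window is chr2:85577336-85577585 and the VAMP5 window is chr2:85584181-85584430, both on the plus strand.
VAMP8: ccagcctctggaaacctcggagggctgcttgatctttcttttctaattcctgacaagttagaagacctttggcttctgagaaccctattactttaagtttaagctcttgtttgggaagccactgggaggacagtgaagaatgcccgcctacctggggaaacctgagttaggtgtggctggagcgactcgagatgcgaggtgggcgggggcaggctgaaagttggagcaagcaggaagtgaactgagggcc
VAMP5: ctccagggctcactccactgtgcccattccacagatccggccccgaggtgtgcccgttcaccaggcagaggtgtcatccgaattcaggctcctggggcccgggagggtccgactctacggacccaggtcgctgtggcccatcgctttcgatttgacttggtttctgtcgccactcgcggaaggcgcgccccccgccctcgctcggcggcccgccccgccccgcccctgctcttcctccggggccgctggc
The VAMP8 window has a GC content of 52.8% and the VAMP5 window 70.0%, against a median of 58.0% over 35116 promoters. Capitals would mark a match, on either strand, to the E-box CACGTG, the FOXO core GTAAACA or the AP-1 site TGANTCA. Neither window holds any of them. Of all promoters, 6.34% hold the E-box, 2.98% the FOXO core and 6.57% the AP-1 site in the same 250 bases.

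All values below are normalized log2 signals, and a fold is the ratio of the signals they stand for. VAMP8 dipped at first and then rose. On the arrays from 0 to 21 h, in order of time, it stood at 13.17, 12.94, 13.64, 13.75, 14.00, 14.07, 14.19 and 14.06. From 24 to 33 h it lay between 13.98 and 14.10, and from 36 to 45 h between 14.15 and 14.31. Every array from 12 h on was at least 1.7-fold above 0 h, and the 45 h array was 2.20-fold above it. The largest rise between neighbouring arrays was 0.70, from 3 to 6 h. A straight line gave a linear change of 0.94 ± 0.18 (SE, 16 arrays), written throughout as log2 over 45 h (adjusted p = 0.000791). Of all tested probes, 4.63% had a larger slope than VAMP8. In a fit that takes up the step in background by giving the arrays up to 21 h and those from 24 h separate levels, the slope was 1.56 ± 0.33 (adjusted p = 0.0089). With array weights, which count arrays far from the fit for less, it was 0.46 ± 0.12 (adjusted p = 0.00407).

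**Figure D1:**
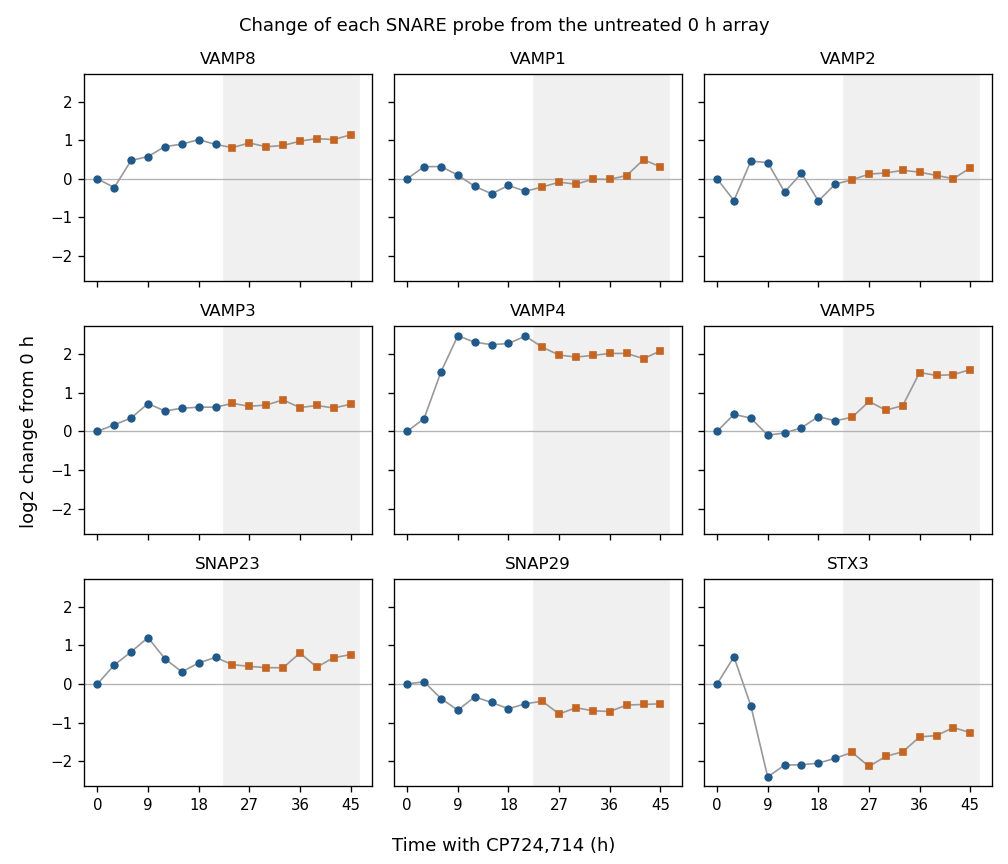
Change of the 9 SNARE probes from the untreated array, as log2 signal minus that at 0 h (vertical axes, shared) against hours with CP724,714 (horizontal axes), with 1 array per point. Circles are the arrays from 0 to 21 h and squares on grey those from 24 to 45 h. VAMP8 and VAMP4 climbed mostly before 12 h, VAMP5 stepped up between 33 and 36 h, and STX3 dropped between 3 and 9 h.

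Of the 9 genes, 7 varied with time in a spline fit (adjusted p under 0.05), namely VAMP8, VAMP1, VAMP3, VAMP4, VAMP5, SNAP29 and STX3, against 42.2% of all probes tested. VAMP2 and SNAP23 were not called, with adjusted p = 0.616 and 0.211. With separate levels for the arrays up to 21 h and those from 24 h, the spline called 5 of the 9, against 29.5% of all probes, and no longer VAMP1 (adjusted p = 0.0545) or SNAP29 (adjusted p = 0.117). In the linear fit 3 genes rose, VAMP8, VAMP3 and VAMP5, against 13.1% of all probes called higher. None fell, against 11.3% called lower, and 6 were not called, of which 1 (SNAP29) had a negative slope at an unadjusted limma p under 0.05. The median linear change of the 9 genes was 0.25, and that of all tested probes was 0.01. The counts and medians over the 9 genes, here and below, include VAMP8. The study picked VAMP8 with the use of these same arrays, so its own calls here add no support. When the arrays were scaled by their median instead of by quantiles, 15% of all probes were called higher and 6.37% lower, the median of all probes was 0.10, and the members gave 3 higher and 0 lower.

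VAMP5, also called myobrevin and best known from muscle, rose the most by the line, but late. Its signal on the arrays from 0 to 21 h was, in order of time, 8.08, 8.52, 8.43, 7.98, 8.04, 8.17, 8.46 and 8.35. The next values, from 24 to 33 h, were 8.45, 8.86, 8.63 and 8.75, and those from 36 to 45 h were 9.61, 9.53, 9.55 and 9.68. The 4 last arrays thus lay above all 12 earlier ones, and the single step from 33 to 36 h was 1.81-fold. The 45 h array was 3.04-fold above 0 h, and the linear change was 1.60 ± 0.24 (SE, adjusted p = 9.9e-05). With separate levels for the earlier and later arrays the slope was 1.48 ± 0.50 and was no longer called (adjusted p = 0.081). With a separate level for each set of 4 consecutive arrays it was 0.66 ± 0.66 (adjusted p = 0.753), in a fit that called 0.00812% of all probes. The step from 33 to 36 h falls between sets, so it cannot be told apart from a shift between them.

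VAMP3, or cellubrevin, which serves recycling endosomes, rose less and early. It went from 10.09 at 0 h through 10.26 at 3 h and 10.43 at 6 h to 10.81 at 9 h, and then stayed between 10.61 and 10.90. The linear change was 0.47 ± 0.14 (SE, adjusted p = 0.0189). It was not called with separate levels for the earlier and later arrays (adjusted p = 0.244), nor without the 0 h array (adjusted p = 0.0889) or the 3 h array (adjusted p = 0.0548). In the arrays from 0 to 21 h alone it was not called either (adjusted p = 0.0788).

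VAMP4, a SNARE of the trans-Golgi network, gave values that depend on the probe. The probe with the higher mean signal, ILMN_139375, gave 6.82, 7.15, 8.36, 9.30, 9.13, 9.06, 9.09 and 9.29 in order of time from 0 to 21 h. From 24 to 45 h it lay between 8.70 and 9.00, and the 45 h array was 4.25-fold above 0 h. The spline fit called it (adjusted p = 4e-06), and the straight line, with a change of 1.05 ± 0.46, did not (adjusted p = 0.112). The line was called without the dim 9 h array (1.26, adjusted p = 0.0481) and in the arrays from 0 to 21 h alone (adjusted p = 0.0196). No other run with 1 array left out called it, and the slope was 0.47 without the 0 h array (adjusted p = 0.464). The other probe, ILMN_2200, was detected on all 16 arrays, moved from 7.70 to 7.99, and had a linear change of -0.01 ± 0.19 (adjusted p = 0.984) and a spline adjusted p of 0.907. The detection p-values of ILMN_139375, alone among the probes used here, are not whole steps of the 708 control values that the other p-values fit, and the rise of VAMP4 rests on that probe. ILMN_139375 was used for its higher mean over the 16 arrays, although at 0 h it was the dimmer probe (6.82 against 7.70). The choice thus drew on the later arrays, where it was high, and the counts and comparisons that include VAMP4 share that choice.

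VAMP1 and VAMP2, the synaptobrevins of nerve terminals, did not follow VAMP8. VAMP1 fell from 7.98 at 3 h and 6 h to 7.28 at 15 h and returned to 8.16 at 42 h and 7.97 at 45 h, with a linear change of 0.14 ± 0.21 (adjusted p = 0.692). It was called higher with array weights, at 0.74 (adjusted p = 0.00431), and in the arrays from 24 to 45 h alone (adjusted p = 0.0184). Its weaker probe ILMN_10438, detected on 7 arrays, had a linear change of -0.44 ± 0.15 (adjusted p = 0.035), so the VAMP1 probes differ in direction. VAMP2 lay between 5.81 and 6.84, close to the median of 5.48 of probes detected on no array. It was not detected at 3 h and 18 h, and its linear change was 0.25 ± 0.23 (adjusted p = 0.479).

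Of the partner SNAREs, SNAP23 is the widespread relative of the neuronal SNAP25 at the plasma membrane. Its signal had its lowest value, 7.48, at 0 h and its highest, 8.69, at 9 h, and it was 8.25 at 45 h. Neither of its 2 probes was called, with linear changes of 0.10 ± 0.22 (adjusted p = 0.798) and 0.38 ± 0.22 (adjusted p = 0.228). SNAP29, which takes part in the fusion of autophagosomes with lysosomes, moved the other way, from 8.56 at 0 h and 8.62 at 3 h to between 7.78 and 8.22 on all later arrays. The spline called it (adjusted p = 0.0243), but its linear change of -0.46 ± 0.18 missed the threshold (adjusted p = 0.0617). Without the 9 h array it was called, at -0.54 (adjusted p = 0.026), but with median scaling it was -0.23 and was not called (adjusted p = 0.516).

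STX3, a syntaxin of the apical plasma membrane of epithelial cells, had the widest range of the 9 genes. It rose from 10.66 at 0 h to 11.37 at 3 h, then dropped to 10.10 at 6 h and 8.25 at 9 h. It stood at 8.56, 8.57, 8.61 and 8.74 from 12 to 21 h, lay between 8.52 and 8.90 from 24 to 33 h, and reached 9.29 to 9.53 from 36 to 45 h. The highest array was 8.65-fold above the lowest, and 13 of the 15 treated arrays were 1.7-fold or more below 0 h. The spline called STX3 (adjusted p = 0.000396), while the line, at -0.85 ± 0.60, did not (adjusted p = 0.336).

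**Figure D2:**
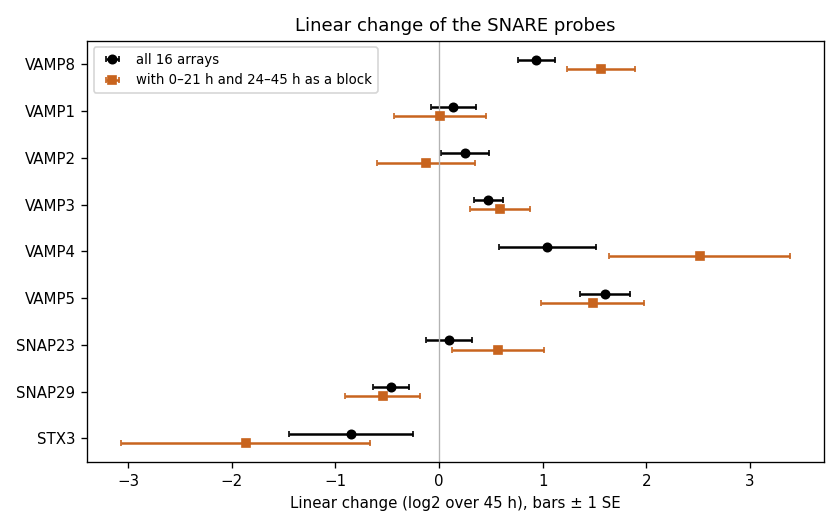
Linear change in log2 over 45 h with bars of ± 1 SE for the 9 SNARE probes, from all 16 arrays (circles) and with the arrays from 0 to 21 h and from 24 to 45 h as a block (squares). VAMP8, VAMP3 and VAMP5 were called higher in the first fit and VAMP8 alone in the second.

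With the block, 1 of the 9 genes, VAMP8, was called higher in the linear fit, against 3.37% of all probes, and none was called lower, against 3.12%. VAMP8 was picked by the study with the use of these arrays, and none of the 8 others was called. When each of the 4 sets of 4 consecutive arrays was given its own level, no gene was called by limma, VAMP8 included (slope 1.22 ± 0.52, adjusted p = 0.566), although 3 of the 9 had an unadjusted p under 0.05. That fit called 0.00812% of all probes.

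At a change of 1.7-fold or more from 0 h on at least 1 array, 7 of the 9 genes passed, against 45.6% of all probes. This criterion has no error term. VAMP4 passed upward on 14 arrays, VAMP8 on 12, VAMP5 on 5, SNAP23 on 3 and VAMP3 on 1, while STX3 passed downward on 13 and SNAP29 on 1. VAMP1 and VAMP2 did not pass on any array.

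Whether VAMP8 rose more than another gene was tested on the difference of their signals within each array. VAMP8 rose more than 6 of the 8 others, against 77.1% of all probes, a share that the 6 members do not exceed. It rose less than none of them, at an unadjusted limma p under 0.05 as well, against 0.917% of all probes. The difference in slope was 1.79 ± 0.71 for STX3 (adjusted p = 0.0264), 1.40 ± 0.31 for SNAP29 (adjusted p = 0.000823) and 0.84 ± 0.27 for SNAP23 (adjusted p = 0.00955). It was 0.80 ± 0.34 for VAMP1 (adjusted p = 0.0397), 0.69 ± 0.30 for VAMP2 (adjusted p = 0.0412) and 0.47 ± 0.19 for VAMP3 (adjusted p = 0.0279). For VAMP4, with probe ILMN_139375, it was -0.11 ± 0.34 (adjusted p = 0.771), and for VAMP5 -0.66 ± 0.36 (adjusted p = 0.0956). The lines thus did not separate VAMP8 from these probes, while the other VAMP4 probe, ILMN_2200, had a linear change of -0.01 ± 0.19. With the array groups as a block VAMP8 rose more than 5 of the 8, against 72.9% of all probes, and SNAP23 was no longer called (adjusted p = 0.107). Since VAMP8 was picked for its change with time, with the use of these arrays, these differences share that choice. A spline in place of the line, chosen after the data had been seen, called the course of all 8 genes different from that of VAMP8, against 91.3% of all probes, with adjusted p = 0.000184 for VAMP5, 0.000214 for VAMP4 and 0.0443 for VAMP3.

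The slopes before and after the step in background are given per 21 h. They differed in 6 of the 9 genes, against 24.7% of all probes. VAMP8 had a slope of 1.16 ± 0.16 from 0 to 21 h and 0.29 ± 0.16 from 24 to 45 h (adjusted p of the difference = 0.00983). VAMP3 gave 0.60 ± 0.15 and -0.05 ± 0.15 (adjusted p = 0.0332), and VAMP4 2.41 ± 0.40 and -0.07 ± 0.40 (adjusted p = 0.00525). These 3 genes had the larger slope in the early arrays. VAMP5 gave 0.08 ± 0.25 and 1.31 ± 0.25 (adjusted p = 0.0186), VAMP1 -0.59 ± 0.21 and 0.60 ± 0.21 (adjusted p = 0.00845), and STX3 -2.63 ± 0.53 and 0.88 ± 0.53 (adjusted p = 0.00386). These 3 had the larger slope in the late arrays. VAMP2, SNAP23 and SNAP29 were not called, with adjusted p = 0.61, 0.967 and 0.108.

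**Figure D3:**
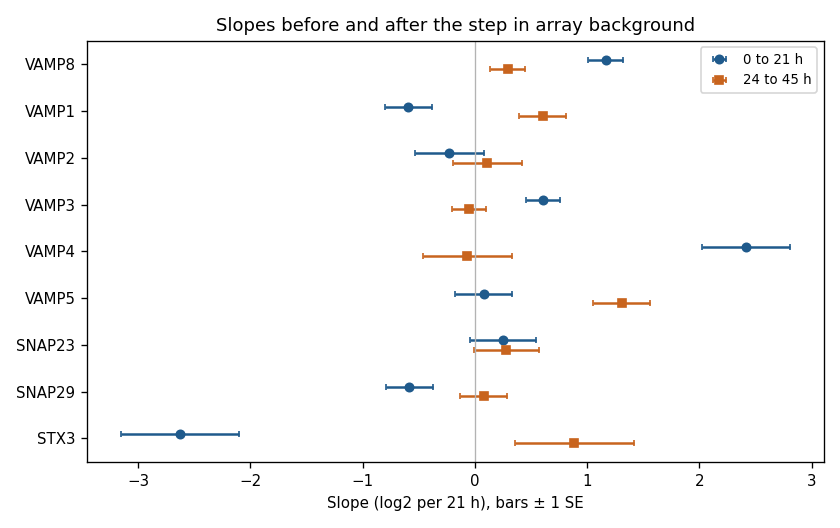
Slopes in log2 per 21 h with bars of ± 1 SE, from the arrays of 0 to 21 h (circles) and of 24 to 45 h (squares), for the 9 SNARE probes. VAMP8, VAMP3 and VAMP4 sit to the right in the early arrays, and VAMP5, VAMP1 and STX3 in the late ones.

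The wider SNARE pathway was described by 8 lists of 94 other genes, of which 81 had a tested probe. In the linear fit 11 of these rose, 7 fell and 63 were not called, and 34 varied with time by the spline. These shares, 13.6% higher, 8.64% lower and 42% time-dependent, lie close to the 13.1%, 11.3% and 42.2% of all probes. Their median linear change was 0.06. With median scaling 20 rose and 2 fell, where all probes also tilted upward, with 15% higher and 6.37% lower, and BNIP1 (adjusted p = 0.063), SCFD1 (0.216) and UNC13D (0.102) were then not called. With the array groups as a block 2 of the 18 called genes remained called, STX12 (adjusted p = 0.022) and GOSR2 (adjusted p = 0.0441), so the other calls named here were lost in that fit, and the slope of CPLX1 turned to -0.16 (adjusted p = 0.853). Among the other vesicle SNAREs, 1 of 6 tested was called, VAMP7, a SNARE of late endosomes and lysosomes, with a linear change of 0.46 ± 0.13 (adjusted p = 0.0143). Of the 22 tested syntaxins and other target SNAREs, 4 rose and 2 fell, near the shares of all probes. The largest rises were those of STX19, at 1.04 ± 0.23 (adjusted p = 0.0023), and of the endosomal STX12, at 0.71 ± 0.12 (adjusted p = 0.000281). The falls were those of GOSR2, a Golgi SNARE, at -0.92 ± 0.14 (adjusted p = 0.000105), and of BNIP1, a SNARE of the endoplasmic reticulum, at -0.81 ± 0.17 (adjusted p = 0.00147).

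For the lists below, the shares over all probes were 13.1% called higher and 11.3% called lower. The lists are small, so their counts are a description. Of the 7 tested SM proteins, which clasp SNARE bundles, STXBP2 rose by 0.42 ± 0.14 (adjusted p = 0.0283) and SCFD1 fell, at -0.59 ± 0.16 (adjusted p = 0.0115). None of the 4 genes of NSF and the adaptors that take used bundles apart was called by limma, and 0 of them had an unadjusted p under 0.05. Of 13 tested SNARE regulators, SYTL2 (0.64 ± 0.19, adjusted p = 0.0212) and CPLX1 (0.55 ± 0.20, adjusted p = 0.0481) rose. The priming factors UNC13B (-0.88 ± 0.26, adjusted p = 0.0182) and UNC13D (-0.84 ± 0.23, adjusted p = 0.0127) fell.

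Of the 11 tested genes of the HOPS tether and late endosome fusion, VPS41 (0.66 ± 0.15, adjusted p = 0.00302) and VPS16 (0.64 ± 0.12, adjusted p = 0.000585) rose and none was called lower. Over all probes 13.1% were called higher and 11.3% lower. Of 10 tested genes of GLUT4 vesicle traffic, RAB10 (-0.61 ± 0.19, adjusted p = 0.0216) and ASPSCR1, also called TUG (-0.48 ± 0.16, adjusted p = 0.0359), fell and none was called higher, beside the same shares of all probes. With median scaling neither was called (adjusted p = 0.0502 for RAB10 and 0.293 for ASPSCR1), while SORT1 was called higher, at 0.73 (adjusted p = 0.0177). SLC2A4, the gene of GLUT4 itself, was detected on 9 arrays and had a linear change of -0.06 ± 0.13 (adjusted p = 0.774). Its signal lay between 5.76 and 6.19, close to the median of 5.48 of probes detected on no array. A slope this near background cannot show whether the transcript changed. Of the 8 exocyst subunits, which tether vesicles to the plasma membrane, EXOC7 rose, at 0.75 ± 0.15 (adjusted p = 0.00141).

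**Figure D4:**
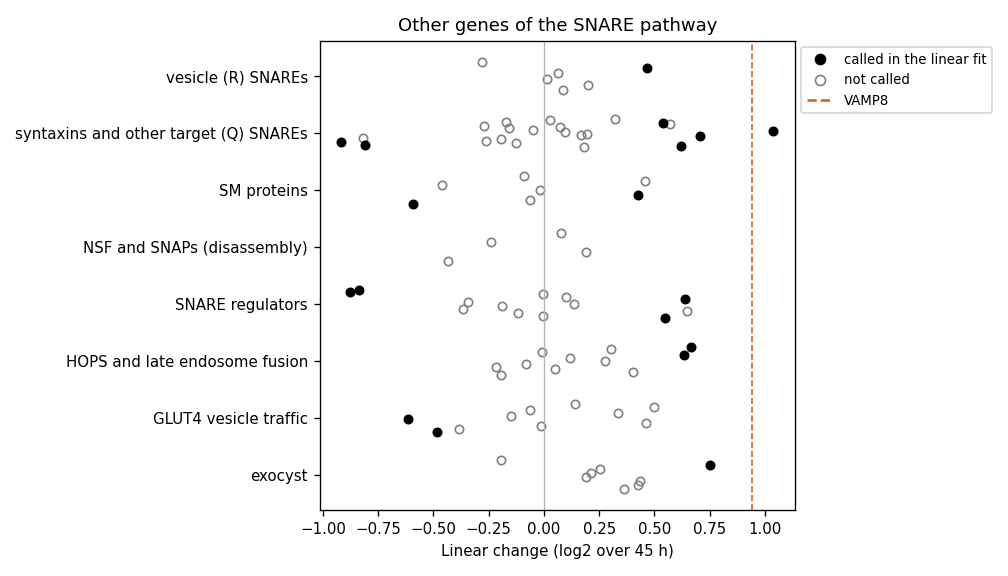
Linear change in log2 over 45 h (horizontal axis) of the 81 tested genes of 8 SNARE pathway lists (rows), with filled points for genes called in the linear fit, open points for the others and a dashed line at VAMP8. STX19 is the 1 gene to the right of the VAMP8 line.

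The genes on either side of VAMP8 on the chromosome were compared with it. Before it lie CAPG, MAT2A and GGCX, and after it VAMP5, USP39 and ST3GAL5, as the nearest genes with a tested probe. CAPG was called lower, at -0.48 ± 0.14 (adjusted p = 0.0151), and MAT2A (0.18 ± 0.16, adjusted p = 0.438) and GGCX (-0.03 ± 0.29, adjusted p = 0.953) were not called. USP39 rose, at 0.48 ± 0.16 (adjusted p = 0.0331), and ST3GAL5, at 1.94 ± 0.73, missed the threshold of the line (adjusted p = 0.0593) but was called by the spline (adjusted p = 1.6e-05). With the array groups as a block neither CAPG (0.04, adjusted p = 0.951) nor USP39 (adjusted p = 0.362) was called.

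**Figure D5:**
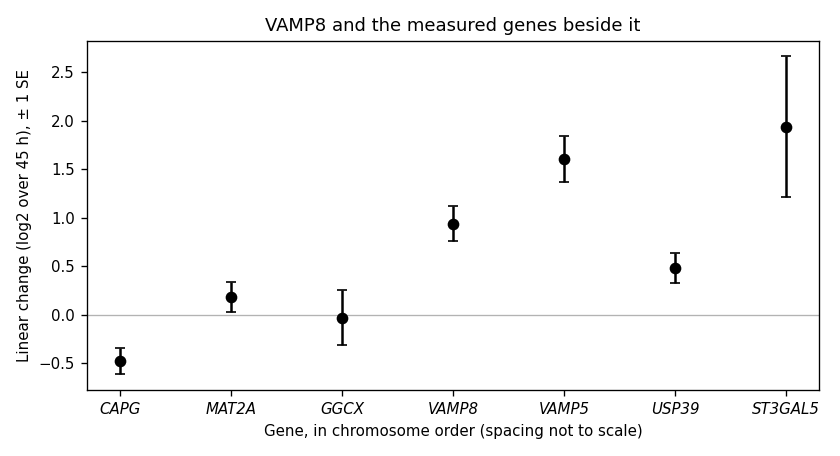
Linear change in log2 over 45 h, with bars of ± 1 SE, of VAMP8 and of the 3 nearest genes with a tested probe on either side, in chromosome order. CAPG lies below 0, MAT2A and GGCX are within or near 1 SE of it, and VAMP8, VAMP5, USP39 and ST3GAL5 lie above it.

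The courses most like that of VAMP8, by Pearson's r over the 16 arrays, were those of CRYZL1 (0.98), DLK2, listed as EGFL9 (0.97), PMM1 (0.97), MGST3 (0.97) and INO80B, listed as ZNHIT4 (0.97). They share the arrays and their normalization with VAMP8, so these values are a description. Their linear changes ran from 0.40 ± 0.10 for MGST3 to 1.76 ± 0.29 for DLK2. Among the SNARE genes, r with VAMP8 was 0.85 for VAMP4, 0.84 for VAMP3, 0.50 for VAMP5, 0.24 for SNAP23, 0.23 for VAMP2, -0.24 for VAMP1, -0.75 for STX3 and -0.82 for SNAP29. The value for VAMP4 is that of probe ILMN_139375, and the other VAMP4 probe did not share its rise.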

How the data were processed

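The authors deposited, without normalization between arrays, the intensity of each probe on each Illumina human Ref-8 v2 array and its detection p-value against that array's negative controls. The steps of the neqc function of limma 3.58.1, run separately in R 4.3.3, removed the background (offset 16), quantile-normalized the arrays and gave log2 values. The mean signal above background that the first step uses was taken from all probes. The control moments come from detection p-values. They were inferred from the 19107 probes whose p is a whole multiple of 1/708 on every array (within 0.01 of a step). The other 1482 probes break the order of p and signal: with them the control SD was 212 to 491, without them 22.3 to 47.8. This choice was made after the data, the genes described included, had been seen.

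The tests cover the 12321 probes that at least 3 arrays detected at p under 0.05. Time was fitted in limma (lmFit, eBayes with a trend) as a natural cubic spline with 4 degrees of freedom and as a line. Slope differences used VAMP8 minus probe, and time by array group. P-values were adjusted by Benjamini-Hochberg over all tested probes and called under 0.05. With 1 array per time point, p-values measure scatter about a curve, and the array number limits precision. The genes named are the 10 SNARE genes, in each pathway list the 2 largest called rises and falls, the 5 courses most like VAMP8, the 3 nearest tested genes on either side, the markers and ERBB2. SLC2A4 and SORT1 were named outside this rule, after their values were seen. Genes and lists were chosen with earlier results of these data known. Promoters are from RefSeq (GRCh38.p14). The linear and spline fits were run on simulated data with straight-line changes and independent scatter. These data had no step in background and no dim arrays, so they cannot show how the fits handle those.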

Additional observations from a re-analysis of the deposited data

Results flagged for a closer look

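The change in slope between the arrays from 0 to 21 h and those from 24 to 45 h was called in 6 SNARE genes. As the later slope minus the earlier one, in log2 per 21 h, it was -0.87 for VAMP8, -0.65 for VAMP3 and -2.48 for VAMP4. It was 1.20 for VAMP1, 1.23 for VAMP5 and 3.51 for STX3. The arrays change their background between the same time points, and the part of that change in these values was not tested. The first group of arrays also holds the 9 h and 18 h arrays, which were dim.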

How the results depend on the processing

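VAMP8 was called higher under every alternative run except separate levels for the 4 sets of 4 arrays (1.22), where 0 genes had a linear trend. Its slope ran from 0.74 to 0.99 with an array left out, was 0.46 with array weights and 1.56 with the array groups as a block, and reached 2.45 in the arrays to 21 h and 0.62 in those from 24 h (all as log2 over 45 h). The count of genes with a linear trend, 3 as reported, was 1 with the array groups as a block, 5 without the 9 h and 18 h arrays, and 2 to 5 with 1 array left out (5 without the 9 h array). The share of all probes was 24.4% as reported, 6.48% with the block, 26.1% without both dim arrays and 25.5% without the 9 h array. The count of genes whose slope differed from that of VAMP8 in either direction, 6 as reported, was 3 with median scaling and 3 with array weights. It was 3 to 6 with 1 array left out (3 without the 0 h, the 3 h or the 6 h array). The share of all probes fell too, from 78% as reported to 68.4% with median scaling and 47.3% with array weights. Without the 0 h, the 3 h and the 6 h array it was 63.3%, 65.4% and 76%. The count past 1.7-fold, 7 as reported, was 4 without background correction and 4 with the median of the arrays as the baseline. The share of all probes fell as well, from 45.6% to 21.5% and 31.6%. The cause of these changes was not tested. The time-dependent count stayed between 5 and 7, while the share of all probes ran from 24.3% to 56.4%.

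Slopes that changed sign, also as log2 over 45 h, were uncalled except where stated. VAMP1 gave -0.15 as the mean of its probes and -1.24 in the arrays to 21 h, and VAMP2 -0.13 with the block and -0.45 in the arrays to 21 h. Array weights gave VAMP4 -0.16 and STX3 0.88 (called, adjusted p = 0.0468). The arrays from 24 h gave VAMP3 -0.11, VAMP4 -0.14, SNAP29 0.18 and STX3 1.88 (called). With 1 array left out SNAP23 ran from -0.13 to 0.25 and VAMP1 from -0.013 to 0.27. SNAP29 was called lower without background correction (adjusted p = 0.0498), with control moments from all probes (0.0421), among probes detected on all arrays (0.0435) and without the 9 h array (0.026) or both dim arrays (0.0205). It was not called, and its slope was smaller, with median scaling (-0.23, adjusted p = 0.516) and with array weights (-0.22, adjusted p = 0.286). VAMP3 was not called with array weights (0.147). Control moments from all probes, tried after seeing the data, gave 4 genes with a linear trend (24.4% of all probes) and 5 past 1.7-fold (19.5% of all probes). VAMP4 then had a linear change of 0.29. No paired analysis was possible because every time point is a single array. Probes near background, such as that of VAMP2, limit what a fold can show.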
